A study of Mus musculus with 18 samples.

Results

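The comparison across lights off took the 3 dermal libraries labelled ZT14 against the 3 labelled ZT10, which are 6 of the 18 libraries of a time course of mouse dorsal dermis. Zeitgeber time (ZT) is given in hours after the lights came on, and the animals lived under 12 h of light and 12 h of dark, so ZT10 lies in the late light phase and ZT14 in the early dark phase, 4 h later. Each library is the sorted live dermal cells of 1 wild-type (WT) male C57BL/6J mouse, whose skin was digested with collagenase at body temperature before droplet capture, and no animal carried a transgene or received a treatment. The ZT10 mice were collected 10, 34 and 58 h and the ZT14 mice 14, 38 and 62 h into the course. Barcodes with 850 to 7800 detected genes and under 13% mitochondrial unique molecular identifiers (UMIs, 1 per captured transcript) were kept, which left 6081 cells in these 6 libraries of 16877 in all 18. Fibroblasts among them were the cells with at least 20 UMIs of Col1a1, Col1a2 and Col3a1 together, at least 1 of Pdgfra and 0 of Ptprc, and 4223 of the 12119 fibroblasts of the series came from these 6 mice. UMIs were summed over the cells of a library, so that the mouse was the replicate, and all genes were compared.

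In mammals the circadian clock is a loop in which CLOCK and BMAL1 (the product of Arntl) bind E-boxes and switch on their own repressors of the Per and Cry families, with REV-ERB proteins (Nr1d1, Nr1d2) and ROR proteins setting the level of Arntl. Lights off starts the active phase of a mouse, when it moves, feeds and has its higher body temperature, and peripheral tissues receive these daily signals in addition to their own clock. Dermal fibroblasts have such a clock, secrete most of the collagen of the skin, and carry the chaperone systems that secretion and changes of temperature call on.

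Markers were set beside the gate. Dcn, Lum and Mfap5, transcripts of matrix proteins made by dermal fibroblasts and not used by the gate, were detected in the fibroblasts of all 6 libraries. Detection in sums over so many cells could hardly fail. The summed fibroblast markers include the gate genes, so their contrast is partly fixed. They were at 2.80 to 4.53 UMIs per 10000 in the Ptprc-positive cells and at 658 to 1126 in the fibroblasts. The 8 immune markers summed to 0.118 to 0.244 UMIs per 10000 there and to 171 to 297 in the Ptprc-positive cells. Ptprc, by which both cell classes were gated, is among these 8, so part of this contrast was fixed by the gate. The 6 libraries had 13702187 to 35541477 UMIs in all and 262 to 1513 fibroblasts. ZT14 replicate 1 stood apart, with 41.9% fibroblasts among its kept cells (95% Wilson interval 38.1 to 45.8, counting error only) where the other 5 libraries had 61.9 to 80.1%, and with a median of 32157 UMIs per fibroblast where the others had 20042 to 23310. Mitochondrial transcripts were 2.19 to 2.49% of fibroblast UMIs at ZT10 and 2.29 to 2.61% at ZT14. The share of fibroblasts differed by -8.76 percentage points between the times (exact permutation test over libraries, two-sided, p = 0.6, where 3 against 3 mice allow no p below 0.1) and by 0.925 points without ZT14 replicate 1. Of the kept barcodes, 1 occurred in more than 1 of the 6 libraries.

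In fibroblasts, 283 of 12821 genes tested (2.21%) differed between ZT14 and ZT10 at an adjusted p under 0.05 in edgeR's quasi-likelihood test, in which all 18 libraries shared 1 estimate of the spread. Of these, 139 (1.08%) were higher after lights off and 144 (1.12%) were lower. The changes were mostly modest, with a median fold of 1.47 among the higher and 1.61 among the lower genes, and 52 genes changed more than 2-fold. Of the 283 genes, 48 were members of the 22 gene lists compared, among them clock genes, heat shock proteins, endoplasmic reticulum chaperones and immediate early genes, and 235 were in no list. Lists and members were chosen with earlier results of these data known. A list's share of calls, here and below, is therefore no independent support. All 283 kept their direction when any of the 6 libraries was left out, which adds little since they were chosen by this difference. Only 20 were called each time. The count was 189 (1.44%) without ZT14 replicate 1, of which 129 were among the 283, and 33, 30 and 85 without ZT10 replicate 1, ZT10 replicate 3 or ZT14 replicate 3. With the 6 libraries alone, 2 genes were called, Avpr1a and Lrig1. An unadjusted p under 0.05 was found there for 281 of the 283, against 1792 of all 12227 genes tested. The other 2 of the 283 were not tested in that fit. The 283 were chosen by this difference in the same libraries, so their 281 is no independent support. For 278 of the 283, the levels of the 3 ZT14 mice lay all on one side of the 3 ZT10 mice, so such separation adds little to a call. Before normalization, the 3 ZT14 libraries were all above the 3 ZT10 libraries for 18.1% of the genes tested and all below for 6.98%. Beside this stood the summed fibroblast markers, at 789 to 1126 UMIs per 10000 at ZT10 and 658 to 778 at ZT14. These are mostly collagens and include the genes by which the gate chose the cells. Fold changes are given after TMM normalization, under which the median gene moved by 0.0079 (log2).

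Of the 19 clock genes tested, 2 rose, 5 fell and 12 were not called, against 1.08% higher and 1.12% lower of all genes tested. The median log2 fold change of the 19 was -0.37. Nr1d1, which encodes REV-ERBα, a repressor of Arntl (chr11:98767932-98775333, minus strand, mm10), stood at 1.43, 1.18 and 1.26 UMIs per 10000 in the 3 ZT10 libraries and at 0.589, 0.512 and 0.242 at ZT14. The groups did not overlap, and Nr1d1 fell 3.1-fold (log2 fold change -1.63, SE 0.35, adjusted p = 0.0285), although DESeq2 did not call it (adjusted p = 0.0606). Per1, a repressor of CLOCK and BMAL1 that is also induced directly by light and hormonal signals, was at 0.433, 0.445 and 0.454 at ZT10 and at 0.304, 0.214 and 0.185 at ZT14. Every ZT14 mouse was below every ZT10 mouse, and Per1 fell 2.03-fold (SE of log2 0.20, adjusted p = 0.0181). Ciart, a further repressor of CLOCK and BMAL1, was at 0.0776, 0.0918 and 0.0881 at ZT10 and at 0.0266, 0.0387 and 0.0168 at ZT14 (log2 fold change -1.77, SE 0.40, adjusted p = 0.0333). Bhlhe41, which encodes the E-box repressor DEC2, fell by 0.76 on the log2 scale (adjusted p = 0.0383), and Rora, an activator of Arntl, fell by 0.41 (adjusted p = 0.0488).

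Cry1, the repressor that acts late in the cycle, moved the other way. It was at 0.0492, 0.0866 and 0.0229 UMIs per 10000 at ZT10 and at 0.113, 0.144 and 0.175 at ZT14, without overlap, and rose 2.47-fold (SE of log2 0.28, adjusted p = 0.0265). Clock, a positive limb gene, rose from 0.37 ± 0.024 to 0.514 ± 0.041 (mean ± SD, n = 3; log2 fold change 0.40, adjusted p = 0.042). The other clock genes did not pass: Arntl had a log2 fold change of 1.24 (adjusted p = 0.0737) with 1 ZT10 mouse above 1 ZT14 mouse, Dbp -1.05 (adjusted p = 0.101), Hlf -0.81, Nr1d2 -0.59, Bhlhe40 -0.72, Per2 0.47 and Nfil3 0.28, while Cry2, Tef, Per3, Npas2 and Rorb were between -0.37 and -0.06. Of these, Dbp, Hlf, Nr1d2, Bhlhe40 and Cry2 had lower levels in all 3 ZT14 mice than in any ZT10 mouse, and Nfil3 had higher ones. Among the 19 clock genes, called or not, 10 lay all below and 3 all above, against 6.98% and 18.1% of all genes tested. With each of the 6 libraries left out in turn, Nr1d1, Per1 and Cry1 were called in 3 of 6 fits and Ciart, Bhlhe41, Rora and Clock in 1. Without ZT14 replicate 1, Nr1d1 (adjusted p = 0.0242), Per1 (0.00871), Cry1 (0.021) and Clock (0.0299) were called and Ciart, Bhlhe41 and Rora were not.

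Among the called clock genes, Bhlhe41, Ciart and Per1, which fell, and Cry1, which rose, had an E-box near their start. None was found in the bases searched before the starts of Nr1d1, Rora and Clock. In RefSeq's promoter table (GRCm38.p6), 9839 of the genes tested had at least 1 window of 250 bases before a start, and CACGTG was found in 9.84% of them, against 18.1% of 116 genes called lower, 10.5% of 114 called higher and 4 of the 7 clock genes called (Bhlhe41, Ciart, Cry1 and Per1). A gene counted if any of its windows held the element. Windows per gene were 1.28 for all genes tested, 1.29 for the lower, 1.23 for the higher and 1.43 for the called clock genes. Of the other elements sought on both strands, the D-box (TTATGTAA or TTACGTAA) was in 3.45% of the lower, 0.877% of the higher and 0.772% of all genes, the ROR element (TAGGTCA) in 1.72, 0 and 1.94%, the cAMP response element (TGACGTCA) in 4.31, 1.75 and 2.95%, and the glucocorticoid response element (ACANNNTGT) in 6.9, 0.877 and 4.43%. None of these was found in a clock gene that was called. These shares are a description and were not tested. The stretches of 3 of these are shown because they carry this element in genes of both directions, with CACGTG in capitals, each read 5′ to 3′ on the gene's strand and ending before the first annotated exonic base of the window. The window of Per1 precedes the RefSeq start and lies inside the full annotated span of the gene, which begins upstream at position 69095217.
Ciart, chr3:95882252-95882478, minus strand, 3 E-boxes between 116 and 44 bases before the start: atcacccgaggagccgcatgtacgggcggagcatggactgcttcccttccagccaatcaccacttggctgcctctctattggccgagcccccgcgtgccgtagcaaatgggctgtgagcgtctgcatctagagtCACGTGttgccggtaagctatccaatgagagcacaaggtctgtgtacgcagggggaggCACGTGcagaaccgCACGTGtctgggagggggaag
Per1, chr11:69098699-69098947, plus strand, 1 E-box 166 bases before the start: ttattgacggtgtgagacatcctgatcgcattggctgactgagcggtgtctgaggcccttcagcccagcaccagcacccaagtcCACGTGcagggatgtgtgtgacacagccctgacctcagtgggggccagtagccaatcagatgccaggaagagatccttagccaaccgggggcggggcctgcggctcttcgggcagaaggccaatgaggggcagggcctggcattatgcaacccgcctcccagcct
Cry1, chr10:85185065-85185304, minus strand, 1 E-box 60 bases before the start: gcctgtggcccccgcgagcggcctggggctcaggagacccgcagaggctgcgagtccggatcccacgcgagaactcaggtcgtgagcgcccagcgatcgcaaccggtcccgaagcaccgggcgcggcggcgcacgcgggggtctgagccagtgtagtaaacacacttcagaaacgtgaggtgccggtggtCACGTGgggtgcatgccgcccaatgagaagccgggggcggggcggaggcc

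Cirbp (chr10:80165985-80172786, plus strand), which encodes a cold-inducible RNA-binding protein whose mRNA is known to rise when cells are cooled and to fall when they are warmed, fell after lights off. It stood at 0.496, 0.488 and 0.773 UMIs per 10000 at ZT10 and at 0.269, 0.251 and 0.233 at ZT14. The highest ZT14 mouse was far below the lowest ZT10 mouse, and Cirbp fell 2.46-fold (log2 fold change -1.30, SE 0.17, adjusted p = 0.00142) and was called whichever library was left out. The part of body temperature or of the digestion in this change, and in those of the heat shock genes below, was not tested. In the cold-inducible RNA-binding list, 2 of 5 genes were called, both lower, against 1.12% called lower of all genes tested. Beside Cirbp this was Srsf5, a splicing factor (log2 fold change -0.51, adjusted p = 0.045 in edgeR). Rbm3, the other classical cold-inducible gene, was at -0.39 with an adjusted p of 0.0567 in edgeR. Srsf2 and Rsrp1 were at 0.01 and 0.30.

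Of 24 heat shock genes tested, 9 rose, none fell and 15 were not called, against 1.08% higher and 1.12% lower of all genes tested. As the list was chosen with earlier results known, this contrast is no independent support. The median log2 fold change was 0.17, with 16 members above 0 and 8 below. Fkbp4, a co-chaperone of HSP90 that binds steroid receptors, was at 0.318, 0.433 and 0.406 UMIs per 10000 at ZT10 and at 0.869, 0.834 and 1.02 at ZT14, and rose 2.24-fold (SE of log2 0.14, adjusted p = 0.0011). Cacybp, a protein with a co-chaperone-like domain, was at 0.463, 0.462 and 0.489 at ZT10 and at 0.925, 0.792 and 0.889 at ZT14, and rose 1.75-fold (SE of log2 0.10, adjusted p = 0.0011). In both genes the 3 mice of a time lay close together and the times were far apart, and both were called whichever library was left out.

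Stip1, which links HSP70 to HSP90, was at 0.276, 0.307 and 0.206 at ZT10 and at 0.576, 0.461 and 0.686 at ZT14 (log2 fold change 1.05, SE 0.15, adjusted p = 0.00527). Hsp90ab1, the constitutive cytosolic HSP90, rose 1.48-fold (adjusted p = 0.028), from 9.15 ± 0.227 to 14.2 ± 2.41 UMIs per 10000. The HSP90 activator Ahsa1, its partner Chordc1, the HSP110 family members Hspa4 and Hspa4l, and the mitochondrial chaperonin Hspd1 rose by 0.51 to 0.75 on the log2 scale. The stress-inducible Hspa1a and Hspa1b, whose near-identical sequences make their split uncertain, were at -0.50 and -0.33, and Hsp90aa1, Dnajb1, Hsph1 and Bag3 at 0.00, 0.06, 0.14 and -0.23, none of them called. Hspb8, a small heat shock protein, was at -0.51 (adjusted p = 0.0533) with all 3 ZT14 mice below the ZT10 mice, as in 6.98% of all genes tested. Dnajb4 was at -0.44. Hsf1, the master regulator of heat shock transcription, was at 0.10. Without ZT14 replicate 1, 5 of the 24 were called: Fkbp4, Cacybp, Stip1, Chordc1 and Hspa4l. In that fit 1.44% of all genes tested were called.

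The heat shock element GAANNTTC, sought on both strands, was found in the windows of 2 of the 8 called heat shock genes that had one (Fkbp4 and Hspd1), in 7.89% of the 114 higher and 5.17% of the 116 lower genes, and in 6.11% of all genes tested. The stretch of Fkbp4 is shown as the window of the list's largest rise, with the element in capitals.
Fkbp4, chr6:128438678-128438906, minus strand, element 151 bases before the start: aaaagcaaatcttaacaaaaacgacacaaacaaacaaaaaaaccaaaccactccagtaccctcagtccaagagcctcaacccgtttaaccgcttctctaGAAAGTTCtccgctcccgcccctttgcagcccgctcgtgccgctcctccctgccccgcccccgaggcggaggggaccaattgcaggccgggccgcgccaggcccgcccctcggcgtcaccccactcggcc

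**Figure D1:**
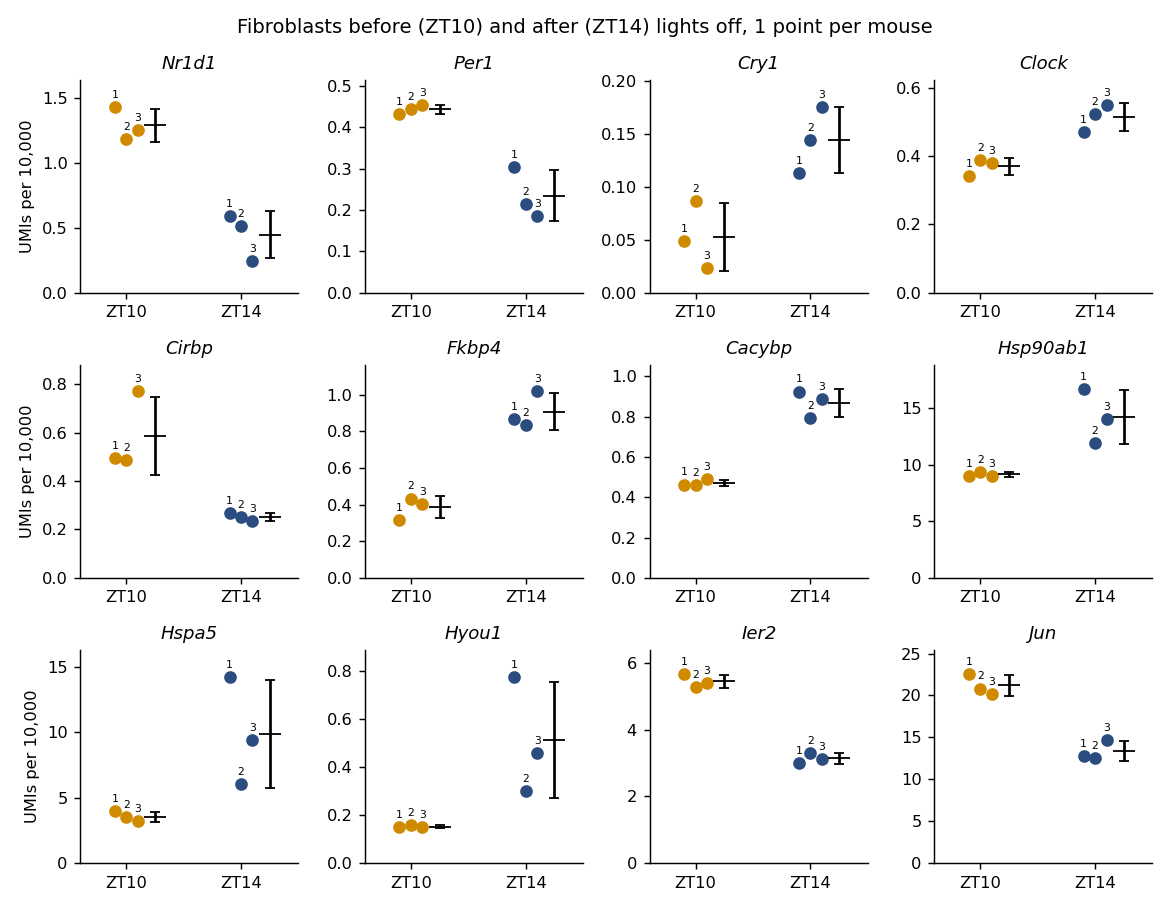
UMIs per 10000 in the fibroblasts of each mouse for 12 genes at ZT10 (orange) and ZT14 (blue), with the replicate number above each point and the mean ± SD (n = 3) beside it; each axis starts at 0. The 3 mice of ZT14 lie on one side of the 3 mice of ZT10 in all 12 panels. All 12 genes were picked from the called ones, of which 278 of 283 are separated in this way. Replicate 1 is the highest ZT14 mouse for Hspa5 (14.3) and Hyou1 (0.774).

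Endoplasmic reticulum chaperones, which fold secreted proteins such as collagen, held the 3 largest rises of the genes named by rule. Of 25 genes tested 6 rose, none fell and 19 were not called, against 1.08% higher and 1.12% lower of all genes tested. In this list 21 were above 0, and the median log2 fold change was 0.36. Hspa5, the HSP70 of the endoplasmic reticulum (BiP), was at 3.95, 3.5 and 3.19 UMIs per 10000 at ZT10 and at 14.3, 6.06 and 9.40 at ZT14. All ZT14 mice were above all ZT10 mice but differed among themselves more than 2-fold, with replicate 1 the highest, and Hspa5 rose 2.65-fold (log2 fold change 1.40, SE 0.24, adjusted p = 0.00978). Hyou1, its nucleotide exchange factor (chr9:44379490-44392369, plus strand), was at 0.147, 0.157 and 0.149 at ZT10 and at 0.774, 0.300 and 0.456 at ZT14 (3.17-fold, SE of log2 0.27, adjusted p = 0.00782).

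Creld2 was at 0.171, 0.158 and 0.164 at ZT10 and at 0.838, 0.297 and 0.437 at ZT14 (2.99-fold, adjusted p = 0.0111). Manf, a secreted protein of the stressed endoplasmic reticulum, rose 2.29-fold (adjusted p = 0.00781), Sdf2l1 2.40-fold (adjusted p = 0.0108) and the disulfide isomerase Pdia4 by 0.73 on the log2 scale (adjusted p = 0.0365). The order of the ZT14 mice, with replicate 1 highest and replicate 2 lowest, was shared by Hspa5, Hyou1, Creld2, Manf and Sdf2l1. Without ZT14 replicate 1, 5 of the 6 were still called (Pdia4 was not) at smaller fold changes, 1.05 for Hspa5 and 1.26 for Hyou1 on the log2 scale. The regulators and effectors Xbp1, Atf4, Ddit3 and Herpud1 were at 0.33, -0.30, 0.24 and 0.05, none called, as was the collagen chaperone Serpinh1 at 0.33.

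The rise of Hspa5 was seen across the cells and not in a few of them. The median fibroblast held 2.80 to 3.32 UMIs per 10000 in the ZT10 libraries and 4.97 to 11.7 in the ZT14 libraries, and the lower quartile at ZT14, 3.35 to 7.33, lay above the median of every ZT10 library. The tenth of fibroblasts with the most Hspa5 held 24.3 to 29.7% of its UMIs at ZT10 and 28.4 to 32.5% at ZT14. Since cells are not replicates, these values describe the libraries and were not tested.

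A pair of sequence blocks that is known to bind the factors of the unfolded protein response, CCAAT and CCACG with 9 bases between them, was sought in the same windows after the values had been seen. It was found in 14 of the 9839 genes tested that had a window (0.142%), in 2 of the 114 genes called higher, Hspa5 and Creld2, and in 0 of the 116 called lower. Of the 6 called endoplasmic reticulum chaperones only 4 had a window, and Hyou1 and Manf, which had none, were not searched. Both stretches are shown with the blocks and the bases between them in capitals; that of Creld2 holds them on the opposite strand, and that of Hspa5 is limited to the bases around the blocks because they overlap an annotated first exon.
Hspa5, chr2:34772020-34772048, plus strand, 65 bases before the start: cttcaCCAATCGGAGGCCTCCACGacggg
Creld2, chr15:88819396-88819645, plus strand, 126 bases before the start: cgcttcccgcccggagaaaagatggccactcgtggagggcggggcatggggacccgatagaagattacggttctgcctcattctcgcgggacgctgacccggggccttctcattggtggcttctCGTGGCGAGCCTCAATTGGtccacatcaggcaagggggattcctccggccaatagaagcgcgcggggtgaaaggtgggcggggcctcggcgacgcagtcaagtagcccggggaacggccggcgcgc

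Immediate early genes, which encode transcription factors and feedback regulators induced within minutes by growth factors, stress and tissue handling, were lower after lights off. Of 26 tested 10 fell, none rose and 16 were not called, against 1.12% lower and 1.08% higher of all genes tested. The log2 fold change was below 0 for 25 of the 26, with a median of -0.67. Ier2 (chr8:84661331-84662852, minus strand) was at 5.67, 5.27 and 5.39 UMIs per 10000 at ZT10 and at 2.99, 3.31 and 3.11 at ZT14. The mice of each time were nearly equal, and Ier2 fell 1.83-fold (SE of log2 0.11, adjusted p = 0.00142) and was called whichever library was left out. Jun, a subunit of AP-1, was at 22.6, 20.8 and 20.2 at ZT10 and at 12.8, 12.5 and 14.7 at ZT14 (log2 fold change -0.74, SE 0.17, adjusted p = 0.0323). Fos, its partner, was at 24.9, 23.9 and 23.4 and at 15.8, 15.5 and 17.03 (log2 fold change -0.65, adjusted p = 0.048). Jun, Fos, Egr1 and Fosb were separated between the times in these libraries but were called in 0 of the 6 fits that left out a library.

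Btg2, an antiproliferative gene, fell 2.21-fold (adjusted p = 0.0248), Fosl2 1.72-fold (adjusted p = 0.0178) and Klf4, a transcription factor of the Krüppel family, 1.52-fold (adjusted p = 0.0178). Myc, Egr1, Fosb and Klf6 fell by 0.96, 0.77, 0.68 and 0.61 on the log2 scale. The median fibroblast held 2.30 to 3.44 UMIs of Ier2 per 10000 at ZT10 and 0.876 to 1.51 at ZT14. Without ZT14 replicate 1, 4 of the 26 genes were called (Ier2, Fosl2, Klf4 and Myc) and the median was -0.70. In that fit 1.44% of all genes tested were called. Btg2 was not called there (adjusted p = 0.056 in edgeR). These genes are also induced while tissue is digested, and no value here separates the level in the skin from that reached during the digestion, whose part was not tested.

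**Figure D2:**
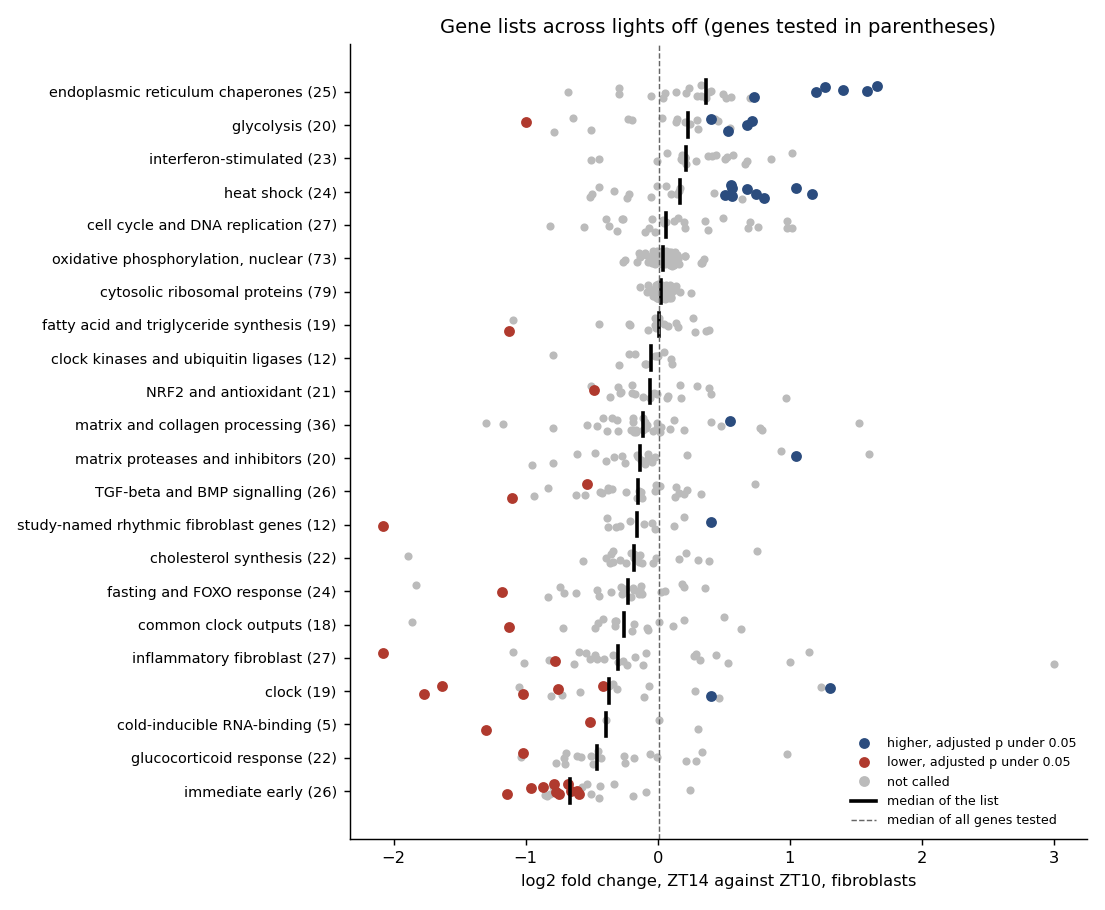
Log2 fold change between ZT14 and ZT10 in fibroblasts (x axis) of every tested member of 22 gene lists (rows, with the number tested), coloured where the adjusted p was under 0.05; black bars are list medians and the dashed line is the median of all genes tested. The immediate early list lies to the left with a median of -0.67 and the endoplasmic reticulum chaperones to the right with 0.36, while the 79 ribosomal protein and 73 oxidative phosphorylation genes cluster at 0.03 and 0.04 with none called.

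Among genes of carbohydrate metabolism, 4 of 20 glycolysis genes rose and 1 fell, against 1.08% higher and 1.12% lower of all genes tested. The list had a median log2 fold change of 0.23. Ldha, which converts pyruvate to lactate, was at 0.905, 1.01 and 0.873 UMIs per 10000 at ZT10 and at 2.13, 1.38 and 1.33 at ZT14 (1.64-fold, adjusted p = 0.0181), and Pgk1, Eno1 and Pkm rose 1.60-, 1.45- and 1.32-fold. Pfkfb3, which makes the allosteric activator of phosphofructokinase, fell by 1.00 on the log2 scale (adjusted p = 0.0487). Ldha alone was called without ZT14 replicate 1 (adjusted p = 0.0299). In the insulin and fasting list, 1 of 24 genes was called: Irs2, an insulin receptor substrate that fasting induces in liver, fell 2.27-fold (adjusted p = 0.0248), from 0.528, 0.346 and 0.304 to 0.244, 0.141 and 0.170. Dgat2, which makes triglycerides, fell 2.18-fold (adjusted p = 0.035), the only call among 19 genes of fatty acid synthesis and 18 common clock outputs, and was not called without ZT14 replicate 1 (adjusted p = 0.0648). The single calls in the fasting, fatty acid and clock output lists stand beside 2.21% called of all genes tested.

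Matrix and signalling genes changed singly, and their few calls stand beside 2.21% called of all genes tested. P4ha1, which hydroxylates collagen prolines, rose 1.46-fold (adjusted p = 0.0178), the only call among 36 genes of matrix and collagen processing, and Adamts15, a matrix protease, rose 2.06-fold (adjusted p = 0.039), the only call among 20 proteases and inhibitors. Col1a1, Col1a2 and Col3a1 had log2 fold changes of -0.62, -0.54 and -0.29, none called. Because the gate chose cells by their sum, these values are not read as a result. Tgfb2, a growth factor of the TGF-β family, was at 1.46, 1.41 and 1.55 UMIs per 10000 at ZT10 and at 0.542, 0.761 and 0.849 at ZT14 and fell 2.15-fold (adjusted p = 0.0248), and its type I receptor Tgfbr1 fell 1.45-fold (adjusted p = 0.0311), the 2 calls among 26 genes of TGF-β and BMP signalling. In the inflammatory list of 27 genes, Il18r1, a subunit of the interleukin-18 receptor, and Lif, a cytokine of the interleukin-6 family, fell 4.23- and 1.72-fold (adjusted p = 0.00581 and 0.0301). Il18r1 was at 0.284, 0.129 and 0.0990 at ZT10 and at 0.0335, 0.0532 and 0.0402 at ZT14, the largest fall of all genes that met the rule for naming. Prdx6, a peroxiredoxin, fell 1.40-fold (adjusted p = 0.0156), the only call among 21 antioxidant genes. Tgfb2, Tgfbr1, Lif and Adamts15 were not called without ZT14 replicate 1 (adjusted p = 0.062, 0.0648, 0.0539 and 0.11), and P4ha1, Il18r1 and Prdx6 were. In the list of 12 rhythmic fibroblast genes that the study named on these same samples, Il18r1 fell and Pkm rose, which is no independent evidence of a direction.

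The remaining largest changes belonged to no list. Among the falls, Avpr1a, the V1a vasopressin receptor, went from 0.333, 0.343 and 0.268 UMIs per 10000 to 0.110, 0.131 and 0.125 (2.72-fold, adjusted p = 0.0111), and Lrig1, an inhibitor of growth factor receptors, from 0.421, 0.448 and 0.435 to 0.193, 0.228 and 0.226 (2.11-fold, adjusted p = 0.00781). These were the 2 genes called in the 6 libraries alone. Groups without overlap were a condition for naming them. Rgcc, a regulator of the cell cycle, fell 3.64-fold (adjusted p = 0.0329), Col4a4, a basement membrane collagen, 2.80-fold (adjusted p = 0.00752), Aox3, an aldehyde oxidase, 2.22-fold, and Otud1, a deubiquitinase, 2.08-fold. Rgcc was spread at ZT10 (0.867, 0.599 and 0.324) and was not called without ZT14 replicate 1 (adjusted p = 0.0548 in edgeR). Among the rises, Phlda3, an inhibitor of AKT signalling, went from 0.109, 0.130 and 0.115 to 0.348, 0.346 and 0.225 (2.43-fold, adjusted p = 0.00978). Samd1, a chromatin protein, rose 2.09-fold (adjusted p = 0.00752), Plec, the cytoskeletal linker plectin, 2.01-fold and Dhx29, a helicase of translation initiation, 1.79-fold.

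Lists with no call had medians between -0.18 and 0.21, of which the highest, that of the interferon-stimulated genes, turned to -0.11 without ZT14 replicate 1. Cytosolic ribosomal proteins (79 tested), nuclear genes of oxidative phosphorylation (73), cell cycle (27), interferon-stimulated genes (23), cholesterol synthesis (22) and clock kinases and ubiquitin ligases (12) were such lists. Their smallest p-values belonged to Rps2 and Rpsa (log2 fold changes 0.25 and 0.16), Uqcrq and Cox5a (0.35 and 0.34), Mcm4 and Ccnd1 (0.50 and 1.01, adjusted p = 0.056 and 0.0579), Bst2 and Oas1a (0.51 and 0.86, of which Oas1a turned to -0.11 without ZT14 replicate 1), Fdps (0.75, adjusted p = 0.0592) and Prkaa2 (-0.80, adjusted p = 0.0514). Of 22 glucocorticoid-responsive genes only Per1 was called, against 1.12% called lower of all genes tested. The list median was -0.46, with 18 members below 0 and 4 above. Without ZT14 replicate 1 the median was -0.69 and 2 members were called, both lower, where 1.44% of all genes tested were called. Among markers of other cell types in the fibroblast sums, the melanocyte list stood at 0.0718 to 0.178 UMIs per 10000 at ZT10 and at 0.015 to 0.0347 at ZT14 (exact permutation test, two-sided, p = 0.1, the smallest possible), nearly all of it Mlana (log2 fold change -2.61, adjusted p = 0.0737), with Tyrp1 at 0 in all 6. The immune (0.118 to 0.244), muscle (0.136 to 1.54) and red blood cell (1.01 to 16.7) lists overlapped between the times, and the part of these cells in the results was not tested.

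The 6 zeitgeber times place the step. Cirbp at ZT14 (0.251 ± 0.0181 UMIs per 10000, n = 3) was below every library of the other times, whose lowest was 0.349, and Fkbp4 (0.909 ± 0.1003) and Cacybp (0.869 ± 0.0685) were above every other library, whose highest were 0.701 and 0.645. Ier2 (3.14 ± 0.159) was likewise below all others. Hspa5, in contrast, was low at ZT6 (4.01 ± 0.422) and ZT10 (3.55 ± 0.381) and stayed at 6.41 ± 1.55, 6.78 ± 0.619 and 7.29 ± 1.51 at ZT18, ZT22 and ZT2. Nr1d1 was still falling at ZT14, at 0.448 ± 0.182 on the way from 1.29 ± 0.129 at ZT10 to 0.0249 ± 0.0111 at ZT18, and Cry1 still rising, at 0.144 ± 0.0309 between 0.0529 ± 0.0320 and 0.244 ± 0.0308. These levels are a description and were not tested beyond the steps.

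**Figure D3:**
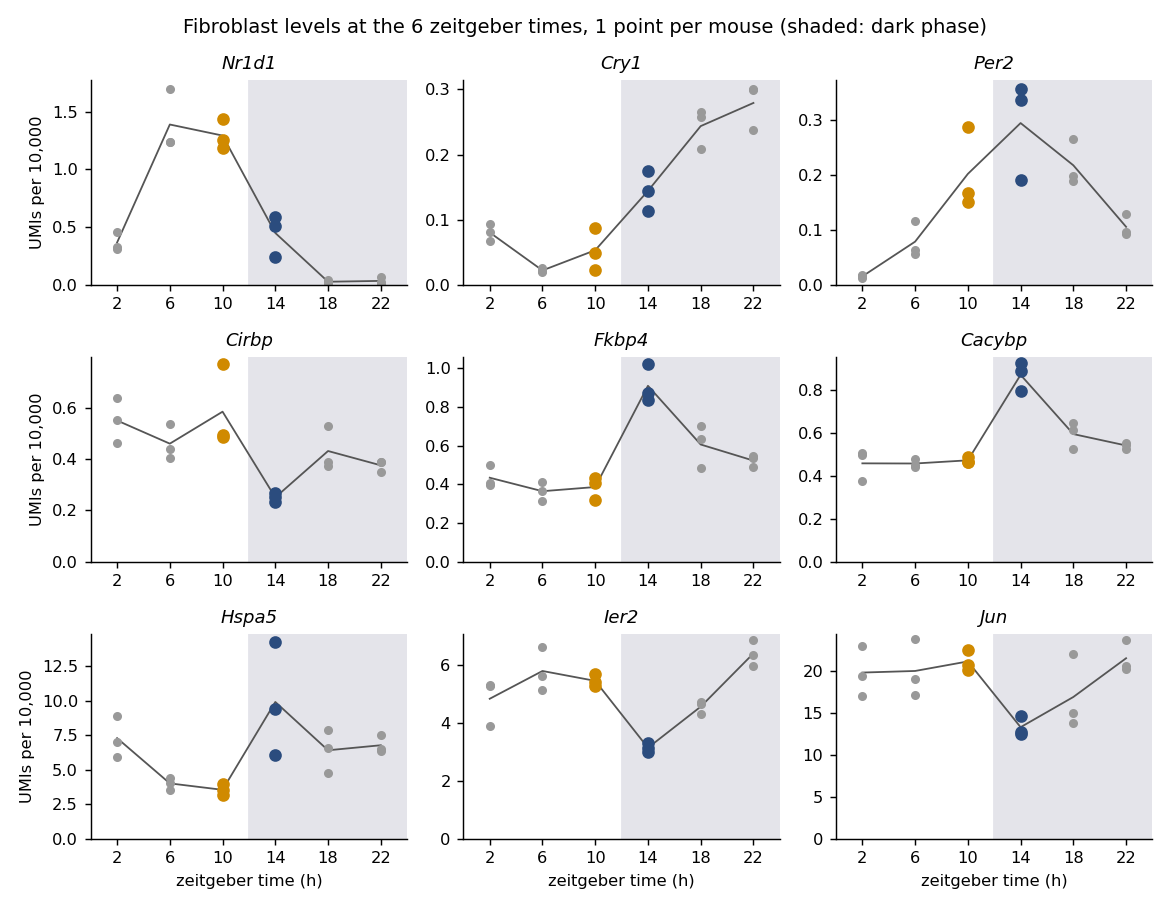
UMIs per 10000 in fibroblasts (y axis, from 0) of 9 genes against zeitgeber time in hours, 1 point per mouse with ZT10 in orange and ZT14 in blue, lines through the means of 3 and the dark phase shaded. Cirbp, Ier2 and Jun have their lowest mean and Fkbp4, Cacybp and Hspa5 their highest mean at ZT14, while Nr1d1 and Cry1 are in mid-course.

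The same fit counted the genes called at each of the 6 steps of 4 h in fibroblasts. Against 283 over lights off, 81 genes (0.632%) were called between ZT2 and ZT6, 92 (0.718%) between ZT14 and ZT18, 7 (0.0546%) over lights on between ZT22 and ZT2, and 1 (0.0078%) between ZT18 and ZT22. Between ZT6 and ZT10 no gene was called by edgeR (0%), with 804 at an unadjusted p under 0.05, and DESeq2 was not run for that step. Without ZT14 replicate 1, the counts were 189 over lights off, 150 between ZT2 and ZT6, 27 between ZT14 and ZT18, 23 over lights on, 8 between ZT18 and ZT22 and 0 between ZT6 and ZT10. Neighbouring steps share libraries, and counts depend on the spread in them.

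**Figure D4:**
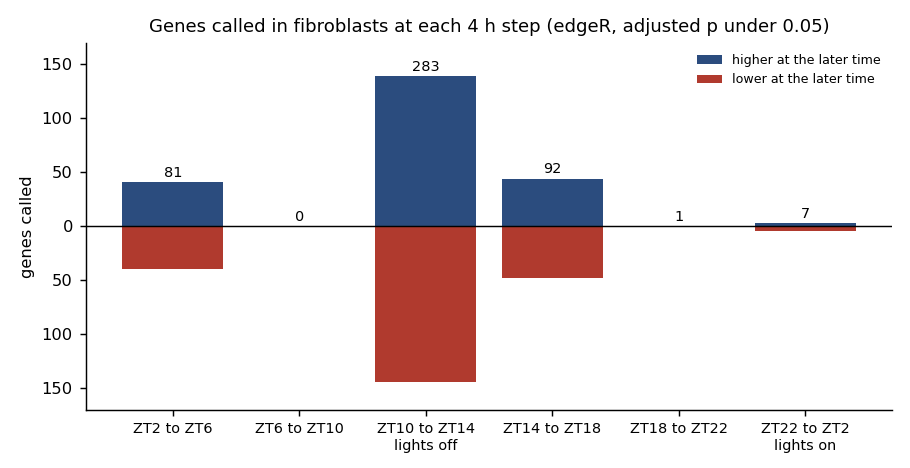
Number of genes called in fibroblasts (adjusted p under 0.05) at each 4 h step, higher at the later time above 0 and lower below 0, with the total printed above each bar. The lights-off step has 283 calls and the lights-on step 7.

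The lights-off and lights-on steps share no library, and their difference was tested gene by gene. It was called for 162 of 12821 genes (1.26%), of which 94 were also called over lights off. The count was 57 without ZT10 replicate 1 or 3, 83 without ZT14 replicate 3, 259 and 283 without ZT14 replicates 2 and 1, and 76 to 107 without any library of ZT22 or ZT2. Nr1d1 and its paralog Nr1d2 had the smallest adjusted p. They had log2 fold changes of -1.63 and -0.59 over lights off and 3.81 and 1.86 over lights on (adjusted p of the difference 0.000384 for both). Klf11, a Krüppel-like repressor, changed by -1.03 and 1.64 (adjusted p = 0.000747). Cry1 and Per2 were opposite in sign to these, at 1.30 and 0.47 over lights off and -1.82 and -2.82 over lights on (adjusted p = 0.000781 and 0.00183). Of the genes outside the clock, Cirbp changed by -1.30 and 0.54 (adjusted p = 0.00115), Cacybp by 0.81 and -0.25 (adjusted p = 0.00129), Fkbp4 by 1.16 and -0.28 and Triqk by -0.99 and 0.45 (both adjusted p = 0.00186). The difference did not pass for the endoplasmic reticulum chaperones Hspa5 (1.40 and 0.09, adjusted p = 0.0636) and Hyou1 (1.66 and 0.50, adjusted p = 0.126), nor for the immediate early genes Ier2 (-0.87 and -0.42, adjusted p = 0.151) and Jun (adjusted p = 0.189). Ciart had nearly equal log2 fold changes, -1.77 over lights off and -1.78 over lights on, with SE of 0.40 and 0.80. Its mean level, in the units used above, went from 0.08585 at ZT10 to 0.02734 at ZT14. At ZT22 and ZT2 Ciart was close to undetected, with means of 0.004192 and 0.001004, and its lights-on step was not called (adjusted p = 0.589 in edgeR). The near equality is therefore not read as an equal fall.

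**Figure D5:**
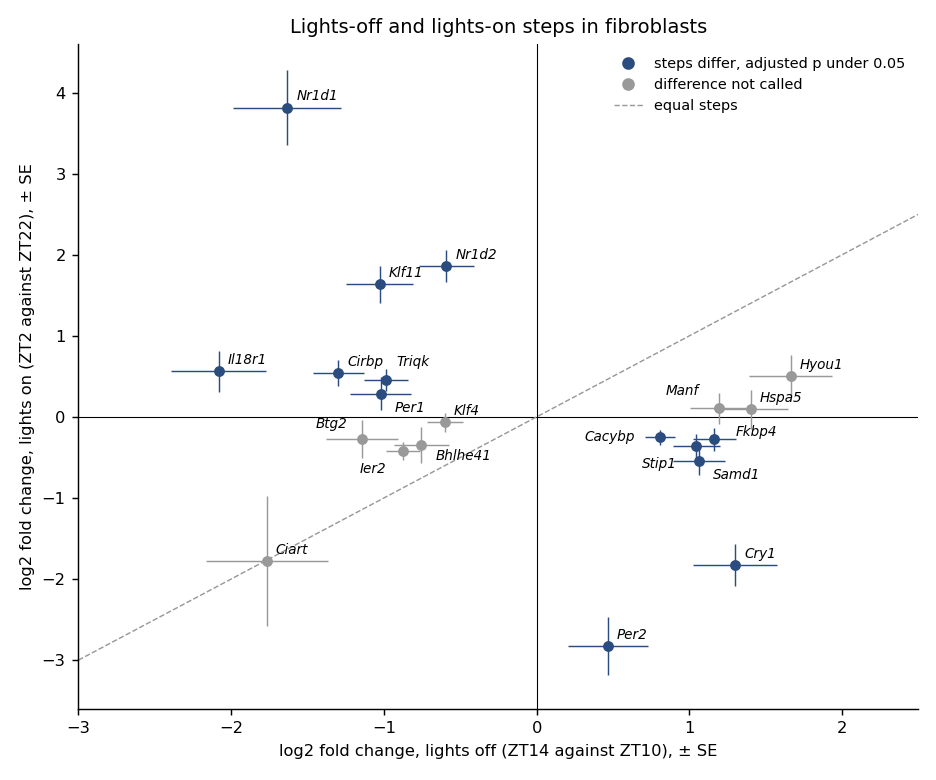
Log2 fold change over lights on (y axis) against lights off (x axis) in fibroblasts for 21 genes described in the text, with SE bars; blue marks genes whose steps differ at an adjusted p under 0.05 and the dashed line equal steps. Nr1d1, Nr1d2, Klf11 and Cirbp lie in the upper left and Cry1, Per2, Fkbp4 and Cacybp in the lower right, that is with estimates of opposite sign. The lights-on step was not called for Cirbp, Fkbp4 and Cacybp, nor the lights-off step for Nr1d2 and Per2.

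Summed over all kept cells, 67 of 14438 genes (0.464%) differed between ZT14 and ZT10, 23 higher and 44 lower. The count was 3 to 7 without any ZT10 library, 41 without ZT14 replicate 1 and 33 without ZT14 replicate 3. Of the 67, 65 (97.0%) were also called in fibroblasts, and they are 23.0% of the 283. The fibroblast UMIs are part of these sums, so the shared calls are not independent evidence. The other 2, Tceal9 (log2 fold change -0.52, adjusted p = 0.0478) and Slc49a4 (-0.43, adjusted p = 0.0443), fell and had -0.46 and -0.35 in fibroblasts (adjusted p = 0.0608 and 0.0625). In these sums a change in the share of a cell type and a change in its cells cannot be told apart.

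In Ptprc-positive cells (77 to 254 per library), which hold the leukocytes of the dermis, no gene of 10346 was called by edgeR (0%), while 624 had an unadjusted p under 0.05 and DESeq2 called 7, all lower at ZT14, among them Per1 (log2 fold change -1.06) and Cirbp (-1.21). The edgeR values of these were -1.08 for Per1 and -1.22 for Cirbp (adjusted p = 0.181 for both), close to -1.02 and -1.30 in fibroblasts. The rest of the 7, Arl13b, Hbegf, Mat2a, Pcyt1a and Spryd7, were at -1.38, -2.05, -0.92, -0.90 and -1.39 by edgeR. In fibroblasts they were at -0.30, -0.50, -0.27, 0.075 and -0.36, none called. At an unadjusted p under 0.05, 2.71% of genes were higher and 3.32% lower, against 10 lower and 0 higher of the 26 immediate early genes, whose median was -0.67 in these cells too. By the same measure 5 of 23 heat shock genes were higher and 0 lower, with Fkbp4 at 0.93 (unadjusted p = 0.000294 in edgeR, adjusted p = 0.304), and 7 of 24 endoplasmic reticulum chaperones were higher and 2 lower, with Hspa5 at -0.07. Nr1d1 was at -1.64 and Cry1 at 0.41. The difference in step between the cell classes, tested with the library as a block, was called for 0 of 13086 genes (0%) by edgeR, with 656 at an unadjusted p under 0.05 and 1 call when ZT14 replicate 3 was left out, and DESeq2 was not run for it. The Ptprc-positive sums had 916704 to 3724536 UMIs against 8660257 to 29835522 in fibroblasts. In a test on simulated counts, 26 of 100 genes changed 2-fold and 83 of 97 changed 4-fold were recovered in Ptprc-positive cells, against 76 of 99 and 92 of 100 in fibroblasts. The part of depth in the count of 0 was not tested.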

How the data were processed

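Per the labels and the study's methods, the authors made 1 droplet library per mouse, aligned reads to mm10 and counted UMIs with Cell Ranger 3.1.0, and deposited raw counts per gene and barcode, 1 matrix for each of 18 libraries, not normalized. Counting error only is covered by Wilson intervals. Libraries were grouped by the labelled zeitgeber time.

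Here UMIs were summed per library over fibroblasts, all kept cells and Ptprc-positive cells (Ptprc at least 1, Pdgfra 0, collagen sum under 20). No doublet caller was run, and leaving out the 5% of fibroblasts with the most UMIs was an alternative. All 18 libraries entered edgeR 4.0.16 (glmQLFit, glmQLFTest, TMM, filterByExpr, Benjamini-Hochberg) in R 4.3.3, as a one-way layout of the 6 times with 12 residual degrees of freedom. DESeq2 1.42.0, RLE factors, no filter, fewer libraries and leaving out each library were alternatives. Levels are UMIs per 10000 without TMM, and fold changes are from the fit. Positions are from GENCODE vM21 (GRCm38, the build mm10), promoters from RefSeq (GRCm38.p6). Python 3.11.15, numpy 2.4.6, pandas 2.3.3 and scipy 1.17.1 were used.

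Tested on simulated counts with 200 genes changed, the fibroblast fit recovered 76 of 99 genes changed 2-fold and 92 of 100 changed 4-fold among 12712 genes, with 10 false calls.

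Named were all clock genes; the 12 largest rises and 12 largest falls in fibroblasts (adjusted p under 0.05, a mean of at least 0.1 UMIs per 10000, groups without overlap, no predicted, mitochondrial or gate genes); up to 4 called genes of each other list, or 2 by smallest p (some of these are not reported here); up to 5 per direction called in other cells alone; and up to 8 per test of a difference. Other list members were named with their list after their values were seen. Members and lists were chosen with earlier results of these data known.

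The labels number replicates by 24 h cycle of collection, so a number marks a cycle and not an animal. Deviations of same-numbered ZT10 and ZT14 libraries from their group means correlated at 0.16, -0.0333 and 0.00737. Pairs with different numbers ran from -0.15 to 0.187. With 6 libraries, these values cannot decide whether mice of the same cycle deviate together.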

Additional observations from a re-analysis of the deposited data

Results flagged for a closer look

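The lights-off and lights-on steps of fibroblasts differed in edgeR's test of the difference for 162 genes, and the 8 with the smallest adjusted p are given as the lights-off minus the lights-on log2 fold change. The difference was negative for Nr1d1 (-5.45), Klf11 (-2.66), Nr1d2 (-2.45), Cirbp (-1.84) and Triqk (-1.44), and positive for Per2 (3.29), Cry1 (3.13) and Cacybp (1.06). The steps of fibroblasts and Ptprc-positive cells gave no such gene (0 called by edgeR, 656 at an unadjusted p under 0.05). With 3 mice at each time, no library was tested as standing apart from its group.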

How the results depend on the processing

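Of the 283 fibroblast genes, 0 changed sign under any alternative, though 9 could not be tested with equal numbers of fibroblasts and 2 in the fits of the 6 libraries. These genes were chosen by this difference in the same libraries, so a kept sign adds little. Their count was 30 to 422 with a library left out, 574 with DESeq2 (273 shared), 2 with the 6 libraries alone, 16 with those without ZT14 replicate 1 (chosen after seeing the data) and 31 with 106 fibroblasts per library (26 shared). RLE, no filter, a collagen sum of 50 and no top 5% of cells gave 278 to 376. With the replicate block, 0 genes were called in the 6 libraries and 374 in all 18 (267 shared, chosen after seeing the data).

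For all kept cells (67 called), DESeq2 gave 382, no filter 39, the 6 libraries 0 with and without the replicate block, and libraries left out 3 to 63. For Ptprc-positive cells (0 called), DESeq2 gave 7, no filter 53 and libraries left out 0. The difference of the steps (162 called) gave 57 to 283 with libraries left out and 91 with the replicate block. The difference of the cell classes gave 0 to 1 with libraries left out. The cause of these changes was not tested, the part of fewer degrees of freedom included.

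Of 47 named genes called in fibroblasts, 11 were called with every library left out, 33 without ZT14 replicate 1, and none changed sign, which their choice as called genes makes likely. Uncalled genes changed sign: with a library left out Npas2 ranged from -0.58 to 0.449 (above 0 without ZT10 replicate 3, at 0.16, or ZT14 replicate 3), Rorb from -0.208 to 0.178 (above 0 without ZT10 replicate 3, and at 0.0213 with equal numbers of fibroblasts) and Oas1a from -0.106 without ZT14 replicate 1 to 1.21 (-0.111 in the 6 libraries without that library). The share of fibroblasts differed by -18.2 to 0.925 points and that of Ptprc-positive cells by -0.92 to 12.8 points (7.28 with all libraries) with a library left out, turning sign without ZT14 replicate 1.

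Ptprc-positive sums hold fewer UMIs than fibroblast sums, and the part of depth in the results was not tested.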
